A study of Mus musculus with 2 samples.

Results

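Base excision repair is the route by which cells remove single damaged bases from DNA, and 10 of its enzymes were followed here in mouse hippocampus: 9 DNA glycosylases (Neil1, Neil2, Neil3, Ogg1, Mutyh, Nthl1, Ung, Tdg and Mpg) and the AP endonuclease Apex1. They were taken as the non-control spots whose gene name in the scanner output equals 1 of these symbols, which gave 10 of 34741 gene names and 15 of 55681 probes, each probe printed as 1 spot. The set was chosen by the difference of Neil2 between the arrays, so that difference is given as a description and supports nothing. The other 9 genes share its pathway, and 9 of the 10 members had a probe well above background on both arrays.

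The 5/6Nx group was hippocampus from ICR mice, which are outbred, taken 8 weeks after 5/6Nx, the usual short form of 5/6 nephrectomy, in which most kidney tissue is removed as a model of chronic kidney disease. The sham group was hippocampus from ICR mice 8 weeks after a sham operation. The comparison asks which hippocampal transcripts differ between these animals. Each group has 1 array, and no source used here gives the age, sex or number of mice behind either RNA sample. There are no replicates, so no difference has a test or a p-value, and the difference between the operations cannot be told apart from that between the RNA samples or between the arrays.

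In base excision repair, a glycosylase recognises a damaged base and cuts it from the sugar, the AP endonuclease or the glycosylase itself opens the strand at the empty site, and a polymerase and a ligase fill and seal the gap. Neil1, Neil2, Neil3, Ogg1 and Nthl1 remove oxidised bases and Mutyh removes adenine paired with an oxidised guanine, Ung removes uracil, Tdg removes thymine or uracil paired with guanine and also oxidised forms of methylcytosine, and Mpg removes alkylated purines. Neurons live long and use much oxygen, and base excision repair is their main defence against oxidised bases.

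Neil2 and Ung are each read by 1 probe, and stretches of these probes are shown. That of Ogg1 is given for comparison, since it holds the same hexamer as that of Neil2. What the probe sequence contributes to any of these values was not tested. They are read from the scanner output, 5′ to 3′, with positions on mm9. Capitals mark AATAAA, the hexamer known as a polyadenylation signal, in Neil2 and Ogg1, and the repeat of GT in Ung.
Neil2, bases 1 to 30 of the probe, chr14:63801312-63801341, minus strand: tatggaactggagtagcaaatgaaAATAAA
Ogg1, bases 31 to 60 of the probe, chr6:113284135-113284164, plus strand: cctttattacaagaaggaacAATAAAatag
Ung, bases 31 to 60 of the probe, chr5:114588761-114588790, plus strand: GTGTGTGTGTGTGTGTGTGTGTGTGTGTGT
The search for AATAAA covered both strands of the 60-base probes. On the printed strand it was held by 2 of the 15 member probes and by 10.1% of all probes, and on the opposite strand by 3.74% of all probes, with that of Ogg1 among them. The Neil2 probe shared a stretch of at most 15 bases with any other probe on the array, and with 1 probe only. The GC content of the member probes lay between 30.0% and 55.0%, against a median of 43.3% over all probes.

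Of 59305 non-control spots, 72.5% were well above background on the 5/6Nx array and 72.7% on the sham array, none was saturated, and the 75th percentile of the signal was 1263 intensity units on the 5/6Nx array and 1452 on the sham array. Replicate spots of 432 probes had a median SD of 0.054 on the 5/6Nx array and 0.056 on the sham array (log2). Below, a difference is the log2 signal relative to that percentile, 5/6Nx minus sham, and its error is the one that the scanner software gives for the 2 spots, a technical error of about 0.20 (log2) that holds nothing of the spread between animals. Over 25917 measured genes the differences had a median of 0.05 and an SD of 0.60, and 8.18% were at least 2-fold in either direction, 4.89% higher and 3.29% lower in 5/6Nx. A 2-fold difference is used as a size and not as a test.

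The labelled tissue was checked by its markers. All 8 pan-neuronal markers and all 10 markers of hippocampal excitatory neurons were measured, with median differences of 0.02 and 0.16, though Wfs1, an excitatory marker, stood at -1.12. Other cell types of the tissue had lower medians: -0.60 for GABAergic interneurons, with 7 of 8 markers below 0 and Pvalb at -1.03, -0.43 for microglia, with 2 of 8 at least 2-fold lower, and -0.37 for oligodendrocytes, with Opalin at -2.30 and Ugt8a at -1.87 but Mobp at 1.44. The 3 measured probes of Mobp ran from -0.004 to 1.44, and the 2 of Pvalb from -1.03 to -0.38. Astrocytes and endothelium had medians of -0.13 and 0.15. Of 8 astrocyte markers 3 were above 0 and 5 below, with Gfap at 1.12, the only one past 2-fold, and Aqp4 at -0.83. The 3 measured probes of Gfap ran from 0.75 to 1.28, so not all were past 2-fold. Markers of choroid plexus, blood and the leptomeninges differed far more. All 12 choroid plexus markers were measured and 11 were at least 2-fold higher in 5/6Nx. Their summed signal was 288061 intensity units on the 5/6Nx array and 27052 on the sham array. Most of the 5/6Nx sum came from Ttr, with 189501 units, and Enpp2, with 75712. On the sham array most came from Enpp2, with 21575 units, while Ttr had 2160. Of 10 blood cell markers 9 were measured and 8 were at least 2-fold lower in 5/6Nx. The sums were 21613 in 5/6Nx and 306279 in sham, most of each from Hba-a2, with 14251 and 189146 units. Of 10 leptomeningeal markers, all measured, 8 were at least 2-fold lower, with sums of 242629 and 357221 in 5/6Nx and sham. Ptgds alone, which differed by -0.14, made up most of both sums, and the other 9 summed to 15400 in 5/6Nx and 70250 in sham. Ttr, the transthyretin made by choroid plexus, differed by 6.66, Clic6 by 4.90 and Kcne2 by 4.81 in the 5/6Nx direction, whereas S100a9 differed by -4.39, S100a8 by -4.34, Hbb-bt by -3.97, Slc22a6 by -2.61, Aldh1a2 by -2.59 and Slc6a13 by -2.53 (all log2). The markers of choroid plexus, blood and leptomeninges had their spots at least 1301 µm from the Neil2 spot. The part of these tissues in any repair gene's value was not tested, and in such bulk RNA fewer cells of a type and less RNA per cell cannot be told apart.

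Neil2 had 1 probe, at chr14:63801282-63801341 on the minus strand, which starts at position 1854 of its transcript. Its processed signal was 677 intensity units on the 5/6Nx array and 50300 units on the sham array. The difference was -6.02 with an error of 0.20 (log2), or 64.7-fold lower in 5/6Nx. The authors' deposited table gives 712 and 46248 units for 5/6Nx and sham. Among the measured genes it was the 2nd lowest of 25917, and the lowest of the 16092 that carry an ordinary gene symbol. The lowest of all was an unnamed probe of chromosome 8 whose spot is next to that of Neil2 on the glass. Over 9 alternative ways of processing, the difference of Neil2 lay between -6.17 and -5.89. All of them use the same spot on each array, so this range is no check of the value.

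**Figure D1:**
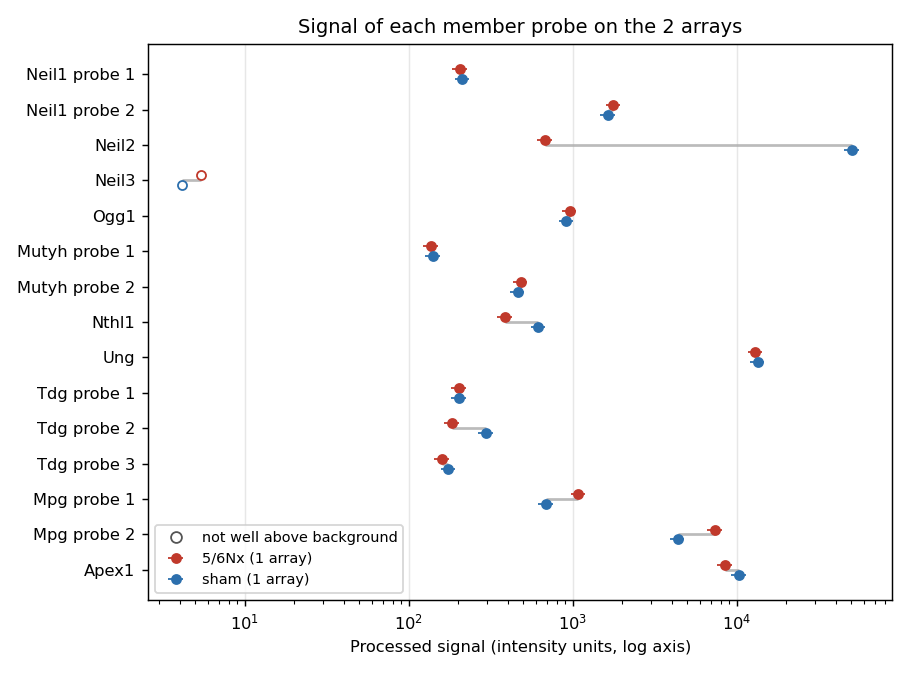
Processed signal of each member probe on a log axis, in intensity units, with the 5/6Nx array in red above the sham array in blue and bars for the error of the scanner software. Open circles are not well above background. Neil2 had 677 units in 5/6Nx and 50300 units in sham, while the other measured probes lie close together on both arrays.

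The Neil2 spot lay in a streak of spots that were at least 4-fold lower on the 5/6Nx array than on the sham array. Of 104 other spots within 200 µm of it, 9 were at least 4-fold lower in 5/6Nx, which is 8.65%, against 597 of 59200 spots farther away, 1.01%, and 1.02% of all spots. At least 16-fold lower were 5 of the 104, or 4.81%, against 0.111% of the spots farther away and 0.121% of all. In the opposite direction 2 of the 104 were at least 4-fold higher in 5/6Nx, beside 1.08% of all spots. The 10 low spots, with that of Neil2, lay along a line 288 µm long, none more than 13.1 µm from it. Their processed signals on the sham array ran from 24.1 to 72222 units, so not all of them were bright. The strip so bounded, which was drawn from these spots, held 10 spots and all 10 were at least 4-fold lower. Outside it 0 of 95 spots within 200 µm were, which was fixed in advance, since the strip was drawn to hold every low spot there. As high a share of 4-fold lower spots within 200 µm was found around 120 other spots, 0.202% of all. Of these, 30 lay within 200 µm of the Neil2 spot and 90 farther away, and the highest share on the array was 13.5%. As high a share of 16-fold lower spots was found around 223 other spots, 61 of them within 200 µm of the Neil2 spot. These circles overlap, so the counts are not of separate places.

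The other spots of the streak belonged to none of the members or repair lists. Stambpl1, a deubiquitinase, at 116 µm from the Neil2 spot, had 1503 units in 5/6Nx and 54511 units in sham. Impg1, a protein of the retinal matrix, at 64.2 µm, had 1093 and 12167 units in 5/6Nx and sham. The unnamed chromosome 8 probe at 32.4 µm had 72.5 units in 5/6Nx and 38821 units in sham, a difference of -8.87 (log2). Olfr134, an odorant receptor, at 112 µm, was not well above background in 5/6Nx and had 382 units in sham. These 4 were named after their values were seen. The scanner software marked 5 of the 104 spots as outliers on the sham array and 0 on the 5/6Nx array, against 0.177% of spots over the sham array. All 5 lay in the streak, that of Stambpl1 among them, and the spot of Neil2 was not marked. The software did mark the local background of the Neil2 spot as an outlier on the sham array, and not on the 5/6Nx array. The background of the Ogg1 spot was so marked on both arrays.

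**Figure D2:**
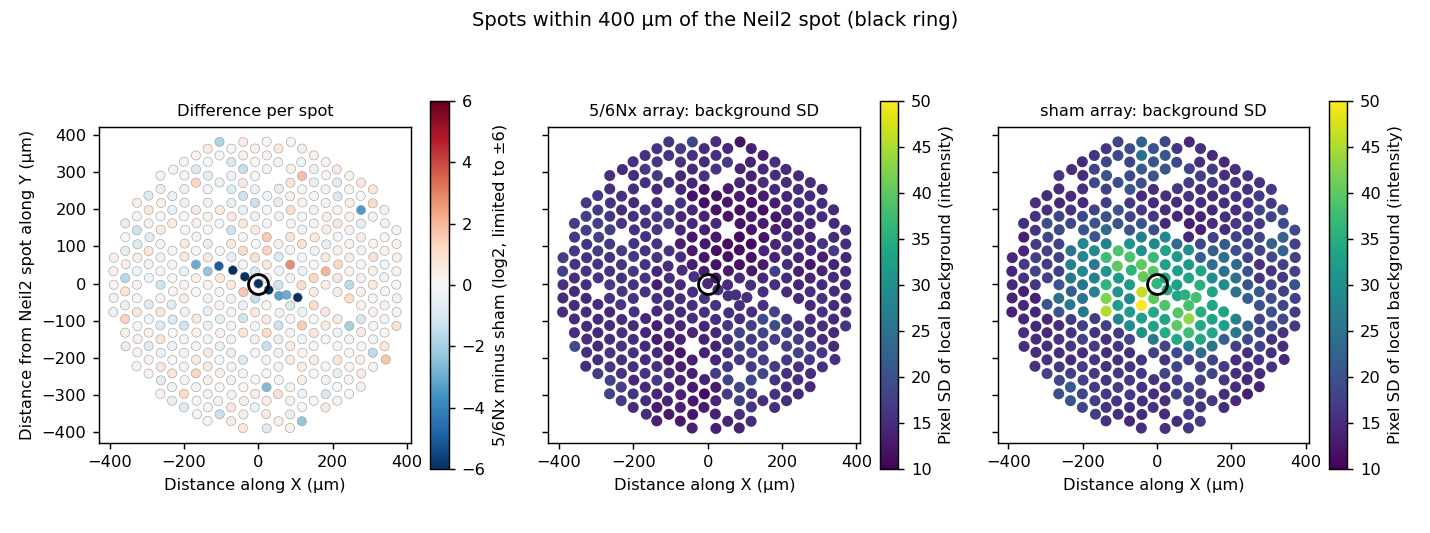
Spots within 400 µm of the Neil2 spot (black ring), by distance in µm along both axes of the array. The left panel shows the difference in log2, 5/6Nx minus sham, and the others the pixel SD of the local background on the 5/6Nx and the sham array in intensity units. The 10 low spots of the streak, all within 200 µm, form a line, and the background of the sham array is uneven around them. Farther out, 1 spot between 200 and 300 µm and 2 between 300 and 400 µm were also at least 4-fold lower.

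The pixels of the spot differed between the arrays as well. On the 5/6Nx array the Neil2 spot had 39 pixels with a mean of 774 and a coefficient of variation of 10.6%. On the sham array it had 40 pixels with a mean of 51961, a median of 56608 and a coefficient of variation of 20.2%. Of 630 other sham spots within 20% of its brightness, 626 had a lower coefficient of variation, with a median of 9.73%. Its local background on the sham array had a pixel SD of 36.5 intensity units, higher than on 629 of those 630 spots, whose median was 15.5, while on the 5/6Nx array the SD was 14.9. The median background SD of the sham array was 34.0 within 100 µm of the Neil2 spot, 28.6 from there to 200 µm and 17.6 from there to 300 µm. On the 5/6Nx array it was 14.9, 14.6 and 15.0 over the same rings. Among the 630 spots of like brightness the median difference was -0.10 (log2) and the lowest, that of Stambpl1, was -4.98.

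**Figure D3:**
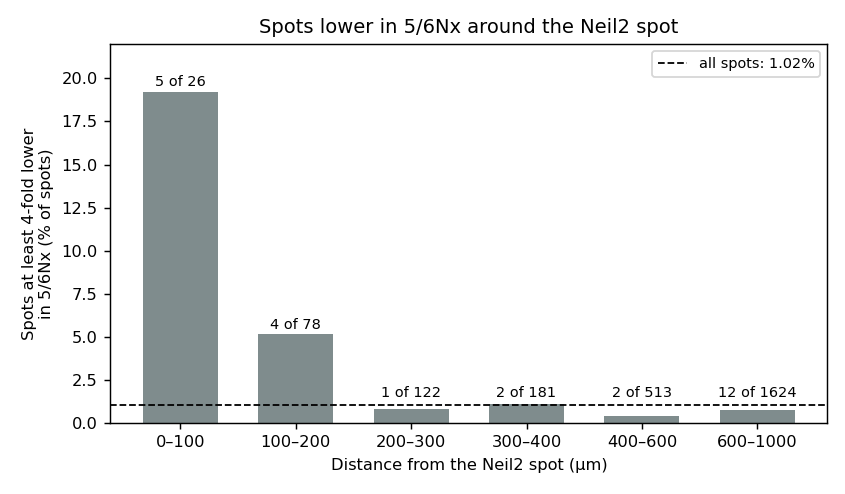
Bars show the percentage of spots at least 4-fold lower in 5/6Nx, by distance from the Neil2 spot in µm, with the counts above each bar and all spots as the dashed line at 1.02%. The share was 19.2% within 100 µm, where 5 of 26 spots were low, and 0.82% between 200 and 300 µm.

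The array holds no other probe of Neil2, so there is no value of Neil2 outside the streak, and its part in the difference was not tested. The spots of the other 14 member probes were at least 1388 µm away. Around them 0% to 3.88% of spots were at least 4-fold lower, and the pixel SD of their background was 10.4 to 16.7 on the 5/6Nx array and 10.4 to 20.6 on the sham array. Leaving out every spot within 200 µm of the Neil2 spot removes Neil2 itself and leaves the median of the other 8 measured members at 0.21 (log2), as before. None of their spots lies that near, so this could change only the scaling of the arrays and is no check of their values.

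Without Neil2, none of the measured members reached 2-fold. Of all 9, 1 was at least 2-fold lower, which is 11.1%, and 0 were at least 2-fold higher, beside 3.29% and 4.89% of all measured genes. Since Neil2 was chosen for its difference, nothing is read from that count. Differences above 0 were seen for 5 members and below 0 for 4, with a median of 0.15, against 55.4% above 0 and a median of 0.05 over all measured genes. The 8 others ran from -0.49 to 0.96. The differences of Ung, at 0.15, and Apex1, at -0.09, were smaller than the technical error of about 0.20 on the reported scale.

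**Figure D4:**
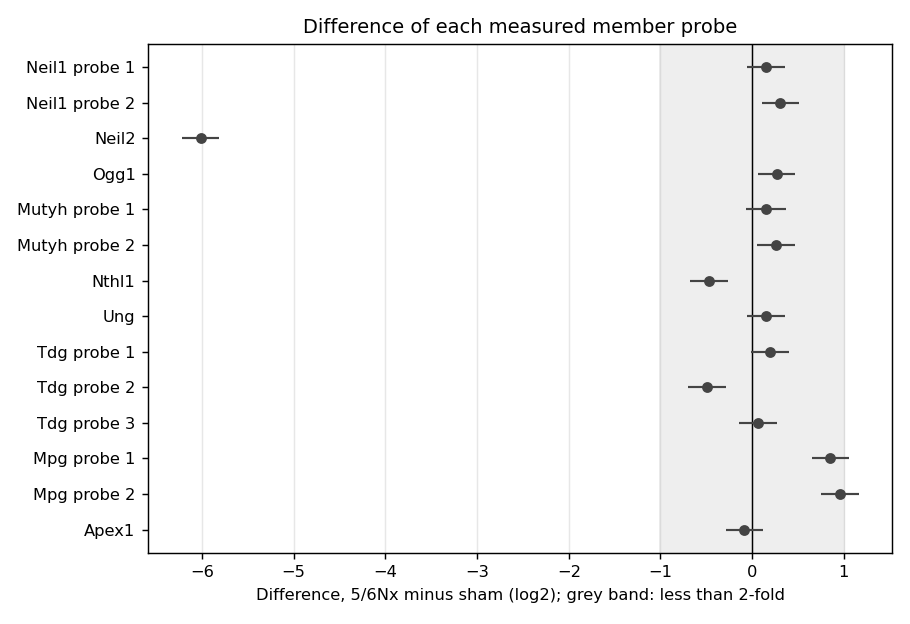
Difference of each of the 14 measured member probes in log2, 5/6Nx minus sham, with the technical error as bars. The grey band marks less than 2-fold. Neil2 stands at -6.02, both probes of Mpg at 0.85 and 0.96, and the 3 probes of Tdg on both sides of 0.

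Neil1, the other NEIL enzyme that was measured, excises oxidised pyrimidines. Its brighter probe, at chr9:56990628-56990687 on the minus strand, had 1763 units in 5/6Nx and 1639 units in sham, a difference of 0.31 with an error of 0.20 (log2). Its other probe, at chr9:56991288-56991347, had 205 units in 5/6Nx and 213 units in sham, a difference of 0.15. Both probes stood a little above 0, by less than 2-fold. Neil3, which acts on single-stranded DNA and is known from proliferating cells, had 5.39 units in 5/6Nx and 4.14 units in sham at chr8:54672466-54672525, not well above background on either array, and no fold is given. Of 10 markers of proliferating cells, Top2a was likewise not above background and the other 9 had a median difference of -0.41.

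Ogg1, the main glycosylase for oxidised guanine, had 957 units in 5/6Nx and 914 units in sham at chr6:113284105-113284164, a difference of 0.27 with an error of 0.20 (log2). Mutyh, which acts where an oxidised guanine was copied against adenine, had 481 units in 5/6Nx and 461 units in sham on its brighter probe, a difference of 0.26. Its other probe spans 142 bases of the genome, chr4:116490399-116490540, and so crosses a splice junction, and had 136 units in 5/6Nx and 141 units in sham, a difference of 0.15. Nthl1, which removes oxidised pyrimidines, had 385 units in 5/6Nx and 615 units in sham at chr17:24775385-24775444, a difference of -0.47, or 1.39-fold lower in 5/6Nx. Of the glycosylases for oxidised bases other than Neil2, then, Neil1, Ogg1 and Mutyh were slightly higher and Nthl1 lower in 5/6Nx, all by less than 2-fold. With the arrays scaled to their medians, the differences of Neil1, Ogg1 and Mutyh were 0.15, 0.11 and 0.10, smaller than the technical error.

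Mpg, the glycosylase for alkylated purines, was the highest member. Its brighter probe, at chr11:32131904-32131963, had 7354 units in 5/6Nx and 4352 units in sham, a difference of 0.96 with an error of 0.20 (log2), or 1.94-fold higher. Its other probe, at chr11:32127889-32127948, had 1078 units in 5/6Nx and 686 units in sham, a difference of 0.85. The probes target positions 946 and 350 of the transcript and differ from each other by 0.10. Mpg fell short of 2-fold in most settings and just reached it when a lowess trend with signal was taken out, at 1.002.

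Tdg, which takes part in DNA demethylation as well as in repair, had 3 probes that did not point one way. The brightest, at chr10:82112994-82113053, had 183 units in 5/6Nx and 295 units in sham, a difference of -0.49 with an error of 0.21 (log2). The probe upstream of it, at chr10:82110701-82110760, had 201 units in 5/6Nx and 202 units in sham, a difference of 0.20. The probe downstream of it, which starts at position 3093 of the transcript against 2972 for the brightest, lies at chr10:82113115-82113174 and had 159 units in 5/6Nx and 174 units in sham, a difference of 0.07. Of the 4 members with several measured probes, Neil1, Mutyh and Mpg had all of them on one side of 0 and Tdg did not. Averaged over its probes the difference of Tdg was -0.08.

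Ung, the uracil glycosylase, had 12949 units in 5/6Nx and 13387 units in sham at chr5:114588731-114588790, a difference of 0.15 with an error of 0.20 (log2), which became -0.01 when the arrays were scaled to their medians. The probe carries an unbroken run of 34 alternating G and T bases, most of which is printed above. On the array 35 other probes hold such a run of at least 24 bases, and all 35 were well above background on both arrays. Their median signal was 18850 units in 5/6Nx and 19988 units in sham, and their differences ran from -0.002 to 0.26 with a median of 0.15. The value of Ung lay inside that range. How much of the signal at this probe came from Ung transcripts cannot be told from these arrays.

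Apex1, the AP endonuclease that opens the strand after a glycosylase has acted, had 8444 units in 5/6Nx and 10298 units in sham at chr14:51546483-51546542, a difference of -0.09 with an error of 0.20 (log2). Like Neil2 it lies on chromosome 14. Its difference was smaller than the technical error as reported and larger, at -0.24, when the arrays were scaled to their medians.

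The neighbours of Neil2 on the chromosome did not share its difference in size. On one side Fdft1, an enzyme of sterol synthesis, had 2767 units in 5/6Nx and 6584 units in sham on its brighter probe, a difference of -1.05, and -0.39 on the other. Ctsb, the lysosomal protease cathepsin B, had 44997 units in 5/6Nx and 54083 units in sham, a difference of -0.07. The beta-defensin genes Defb42, Defb30 and Defb43 had 1 probe between them that was well above background on both arrays, that of Defb42 at 0.20. On the other side Gata4, a transcription factor, had 12.8 units in 5/6Nx, not well above background, and 23.2 units in sham. Blk, a kinase of the Src family, and Fam167a were well above background on neither array. Tdh, threonine dehydrogenase, differed by 0.30 and 1.44 on its 2 probes and Mtmr9, a myotubularin-related protein, by 0.59 and 0.44. The spots of these neighbours were at least 1884 µm from that of Neil2.

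Among genes with a symbol, the 3 whose difference came nearest to that of Neil2 were Tgtp2, H4c4 and S100a9. With 2 arrays this likeness rests on the size of 1 difference. Tgtp2, an interferon-induced GTPase, had 181 units in 5/6Nx and 5577 units in sham, a difference of -4.75 (log2). H4c4, a histone gene, had 849 units in 5/6Nx and 21365 units in sham, a difference of -4.45. S100a9, a blood cell marker of the list above, had 109 units in 5/6Nx and 2628 units in sham, a difference of -4.39. Their spots were 3334 to 8173 µm from that of Neil2, so none lay in the streak, and Neil2 stood 1.27 below the nearest of them.

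The rest of base excision repair showed no difference of the size seen at the Neil2 spot. Of 21 genes that act with the members, all measured, 13 were above 0 and 8 below, with a median of 0.05, which lay between -0.10 and 0.10 over the alternatives. Pole, the catalytic subunit of DNA polymerase epsilon, was the only one past 2-fold, with 820 units in 5/6Nx and 188 units in sham, a difference of 2.32 (log2). Apex2, the second AP endonuclease, differed by 0.82, with 1045 units in 5/6Nx and 682 units in sham. Polb, the polymerase that fills the gap in short-patch repair, had 2450 units in 5/6Nx and 4422 units in sham, a difference of -0.65. Mbd4, a glycosylase for thymine paired with guanine and so close to Tdg in its substrate, differed by 0.69.

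Enzymes that keep damaged bases out of DNA, or reverse damage directly, had list medians below 0. In the nucleotide pool list 3 of 7 genes were above 0 and 4 below, with a median of -0.33 that lay between -0.49 and -0.14 over the alternatives, and none past 2-fold. Nudt1, the hydrolase that clears oxidised dGTP and is also called MTH1, had 477 units in 5/6Nx and 1052 units in sham, a difference of -0.94 (log2). It passed 2-fold in 4 settings: -1.004 after quantile normalization and in the authors' deposited table, -1.01 after lowess and -1.10 after median scaling. The first 2 of these settings are not independent of each other. Nudt5 differed by -0.53 and Itpa, which clears deaminated purine nucleotides, by -0.38. In the direct reversal list 1 of 3 genes was above 0, with a median of -0.27 that lay between -0.43 and 0.19 over the alternatives. Mgmt, which takes methyl groups off guanine, had 182 units in 5/6Nx and 524 units in sham, a difference of -1.32, so it was past 2-fold. Alkbh3 differed by 0.66 and Alkbh2, its relative, by -0.27.

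The medians of the next 4 lists lay between -0.03 and 0.31, beside 0.05 over all measured genes. Of 8 mismatch repair genes 6 were above 0, with a median of 0.31 that lay between 0.14 and 0.38 over the alternatives, and none past 2-fold, with Pms2 at 0.67 and Msh3 at 0.38 (log2). Of 16 nucleotide excision repair genes 11 were above 0, with a median of 0.15 that lay between -0.01 and 0.17 over the alternatives. Cetn2, a centrin that is part of the damage recognition complex with Xpc, was past 2-fold, with 5326 units in 5/6Nx and 14208 units in sham, a difference of -1.22, while Uvssa differed by 0.94. Of 20 double-strand break genes 19 were measured, Brca1 not being above background, and 11 were above 0 with a median of 0.09, which lay between -0.07 and 0.20 over the alternatives. Rad52 at 0.73, Rad54l at 0.72 and Brca2 at 0.68 were the farthest from 0. Of 10 genes of DNA demethylation and methylation, in which Tdg takes part, 5 were above 0 and none was past 2-fold, with a median of -0.03 that lay between -0.26 and 0.06 over the alternatives. Gadd45b differed by -0.45, Uhrf1 by -0.39 and Gadd45a by 0.38.

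**Figure D5:**
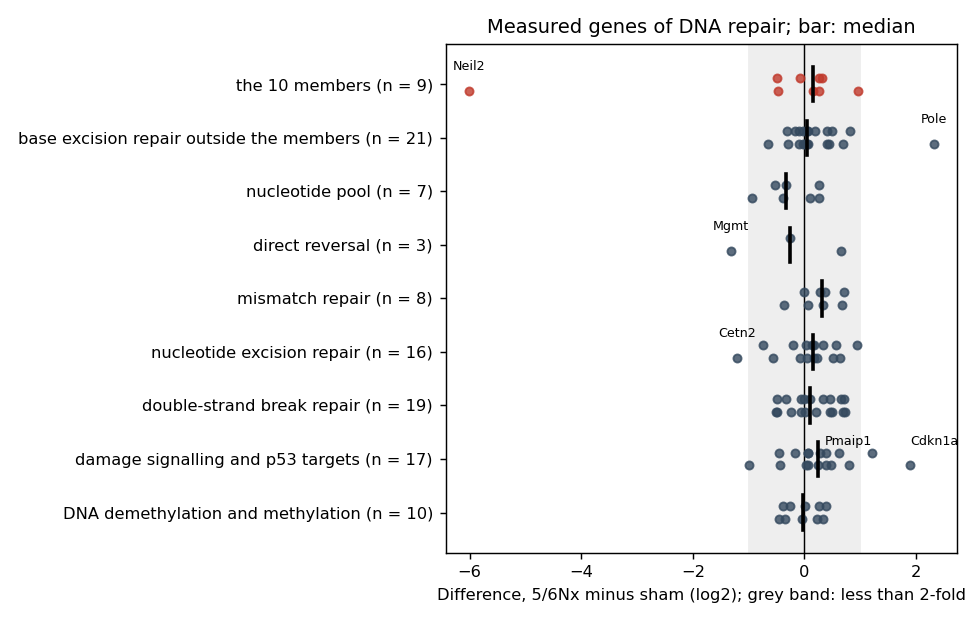
Difference of each measured gene in log2, 5/6Nx minus sham, for the members in red and 8 other repair lists below them, with the median of each list as a bar. The grey band marks less than 2-fold and genes outside it are named. Apart from Neil2 at -6.02, every gene shown lies between -1.32 and 2.32.

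Damage signalling and p53 targets held the highest values after Pole. Of 18 genes 17 were measured and 13 were above 0, with a median of 0.24, or 0.08 when the arrays were scaled to their medians, and 2 genes past 2-fold, both higher in 5/6Nx. Cdkn1a, the cell cycle inhibitor p21, had 3991 units in 5/6Nx and 1260 units in sham, a difference of 1.90 (log2). Pmaip1, the pro-apoptotic protein Noxa, had 1453 units in 5/6Nx and 724 units in sham, a difference of 1.21. Ccng1, a p53 target as well, had 2069 units in 5/6Nx and 4714 units in sham, a difference of -0.99 that passed 2-fold, at -1.15, with the arrays scaled to their medians. Trp53 itself differed by 0.62. The spot of Phlda3, a p53 target of this list that differed by -0.43, was 102 µm from that of Neil2 and outside the streak. It still lay where the sham background was uneven, with a background pixel SD of 38.7 on the sham array and 15.3 on the 5/6Nx array. Over the 8 lists 100 of 102 distinct genes were measured, 62 above 0 and 38 below. In 5/6Nx 3 genes were higher and 2 lower by 2-fold or more, which is 5% together, beside 8.18% of all measured genes, and their median was 0.06.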

How the data were processed

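Cy3-labelled cRNA made from total RNA of the hippocampus was measured on 1-colour arrays of 60-base probes, 1 per group, per the labels' protocols. The deposited scanner output holds linear intensity values per spot, background-subtracted and spatially detrended by Feature Extraction 10.7.1.1, per the file headers, whereas the submitters' processing notes name 9.5.1.1. The authors' deposited table of the series holds 1 normalized intensity per probe and was used as an alternative. Its 2 columns have a median of 124.0 each and the same sorted values within 0.0323%. Each correlated at 1.0000 with its own array and 0.9825 with the other, so it was taken as linear and uncentred. Quantile normalization gives columns with equal sorted values, so this table and the quantile setting are not independent alternatives. The files carry 1 slide and 1 scan, so neither separates the groups.

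Control spots were dropped, and outlier spots (97 in 5/6Nx, 105 in sham) were left out of the gene values. The counts of spots by position and the 630 spots of like brightness kept outlier spots. Among them were 5 of the 10 low spots of the streak. Each array's processed signal was put on the log2 scale relative to its 75th percentile, and spots of a probe were averaged. A gene was represented by its probe with the highest mean among those that 1 or both arrays showed well above background, and was measured when both did. Probe names came from RefSeq mouse genes (GRCm38.p6) for 31381 probes, and positions from the files, on mm9; the files give no exon. Distances between spots come from the positions in the files. The number of arrays limits the precision. Arithmetic was tested on simulated data. Python 3.11.15, pandas 2.3.3, R 4.3.3 and limma 3.58.1 were used.

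The members, lists and alternatives were chosen with earlier results of these data known. All members are named, of each repair list those past 2-fold and, to a total of 3, those with the largest differences, of the marker lists up to 3 with the largest differences, and all neighbours of Neil2 with a probe. Some genes that this rule takes are not reported here. Polb, Ptgds, Enpp2, Hba-a2, Trp53, Phlda3, Top2a and the spots of the streak are named after their values were seen.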

Additional observations from a re-analysis of the deposited data

How the results depend on the processing

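No paired analysis was possible because there is 1 array in each group, and for the same reason no array could be left out. Of the 9 measured members only Ung, at -0.01 under median scaling, changed its sign over the alternatives, and Tdg moved to -0.076 as the mean over probes. The ranges over the alternatives were -0.24 to -0.03 for Apex1, 0.80 to 1.002 for Mpg, 0.10 to 0.38 for Mutyh, 0.15 to 0.31 for Neil1, -0.63 to -0.34 for Nthl1 and 0.11 to 0.27 for Ogg1. Higher and lower genes past 2-fold numbered 683 and 497 after normexp, 635 and 468 when background was not subtracted, 2590 and 1668 when dim probes were kept, and 319 and 305 above the median signal, against 1268 and 852 as reported. They numbered 3549 and 2313 past 1.5-fold and 387 and 245 past 3-fold. The higher share of the 2-fold genes was 59.8%, and 49.2% after quantile normalization, 47.9% after lowess, 49.4% in the authors' deposited table and 42.3% after median scaling, which moves the median of all genes to -0.11. In the other repair lists the lower genes numbered 2 as reported, 3 after quantile normalization, after lowess and in the authors' deposited table, where Nudt1 was added, 4 under median scaling, where Nudt1 and Ccng1 were, 1 above the median signal, 6 past 1.5-fold and 0 past 3-fold, and the higher genes 16 past 1.5-fold. Of 208 list medians 197 moved by less than the technical error and 11 by more. Around the Neil2 spot 19.2% of spots within 100 µm and 4.42% within 300 µm were at least 4-fold lower. The pixel medians, the distances of 100 and 300 µm, the strip and the removal of the spots near Neil2 were chosen after seeing the data. The other comparisons by spot position, by pixels and by probe sequence were not among the planned ones either. Signal over background limits Neil3, Brca1 and Chek2, and the single spot of Neil2 and the repeat in the Ung probe limit those genes.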
